A study of Mus musculus with 2 samples.

Results

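Naive CD4 T cells commit to helper fates through transcription factors, most of which also act in regulatory T cells (Tregs). T-bet (Tbx21), Eomes, Hlx and Runx3 belong to type 1 and cytotoxic programmes, Ahr is a ligand-activated factor of type 17 and barrier immunity, Bcl6 directs the follicular programme, and Zbtb7b (ThPOK), Runx3 and Runx1 act in the choice between the CD4 and CD8 lineages. Runx1 also binds DNA together with Foxp3, and Id3 holds E proteins inactive and restrains follicular fates in T cells. These 9 genes, chosen as factors of the type 1, type 17, follicular and CD4/CD8 choices, were followed among the 22911 genes that had a named probe on the arrays. Their probes were found through the RefSeq accession attached to each probe, which gave 13 probes, each with 1 spot per array. Values of the genes were not used for the choice of probes.

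The cells came from mouse kidney on day 28 of cGN, a glomerulonephritis started with antibody against the glomerular basement membrane (anti-GBM), and were sorted as CD45+, CD3e+, CD4+ T cells with the FoxP3-hCD2 reporter. This reporter puts human CD2 on cells that express Foxp3. The study used a lot M and a lot I of the anti-GBM antibody because severity varied between lots, and deposited 1 array for each, with titles that number the arrays as repeats. Both groups share the disease, the reporter, the time and the sort, and the labels used here give neither strain, age nor the number of mice behind an array. There was no array of Tregs from healthy kidney or of other T cells, so no level below says what the injury or the Treg state did.

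Array 2 is the array recorded under lot M in the scanner output, and array 1 the array recorded under lot I. The deposited value table holds the same signals under the opposite lots: log2 signal minus log2 value had an SD of 0.000395 between array 2 and the column of lot I, against 0.181 between array 2 and the column of lot M. For array 1 the SD was 0.000300 with the column of lot M and 0.156 with that of lot I. Arrays are therefore called by number, and a difference is array 2 minus array 1. Levels are log2 of the processed signal over the 75th percentile of the probes on that array. The detection floor, the lowest level flagged well above background, was -4.58 on array 2 and -4.62 on array 1. The error given as ± is the scanner software's own estimate for a spot, called spot error here, and it leaves out the variation between mice, sorts and labelling reactions. With 1 array per lot no test was possible, and no p-value is given. The probes of different genes bind with different strength, so levels were compared between arrays and not between genes.

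The sorted RNA carried the Treg markers. All 10 listed genes, from Foxp3, Il2ra, Ctla4 and Ikzf2 to Cd3e, Cd4 and Ptprc, passed the detection flag on each array. They had levels from 3.20 to 7.92 on array 2 and from 3.21 to 7.86 on array 1. On each array 54.0% of the probes were well above background. In the quality fields of the scanner output, array 2 was marked for evaluation (its detection limit from spike-in controls was not in range) and array 1 was marked in range.

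Transcripts of 8 of the 9 factors were well above background on both arrays, where 60.0% of all genes with a named probe were. Hlx was the exception. Of the 13 probes, 11 were well above background on both arrays and the other two, for Hlx and a second Eomes transcript, on neither. Among the 8 measured factors, 6 were higher and 2 lower on array 2, with a median difference of 0.10. Over all 13743 measured genes 53.8% were higher on array 2 and the median difference was 0.01. Eomes was the only factor 2-fold or more apart. A difference of that size in that direction was found in 1.34% of all measured genes, and in the opposite direction in 0.0873%. At a limit of 1.5-fold Eomes was again the only factor called, against 5.16% of genes higher and 0.815% lower, and at 4-fold 0 factors were called, against 0.0655% higher and 0.0146% lower. The remaining 7 factors differed by 0.34 or less in size.

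**Figure D1:**
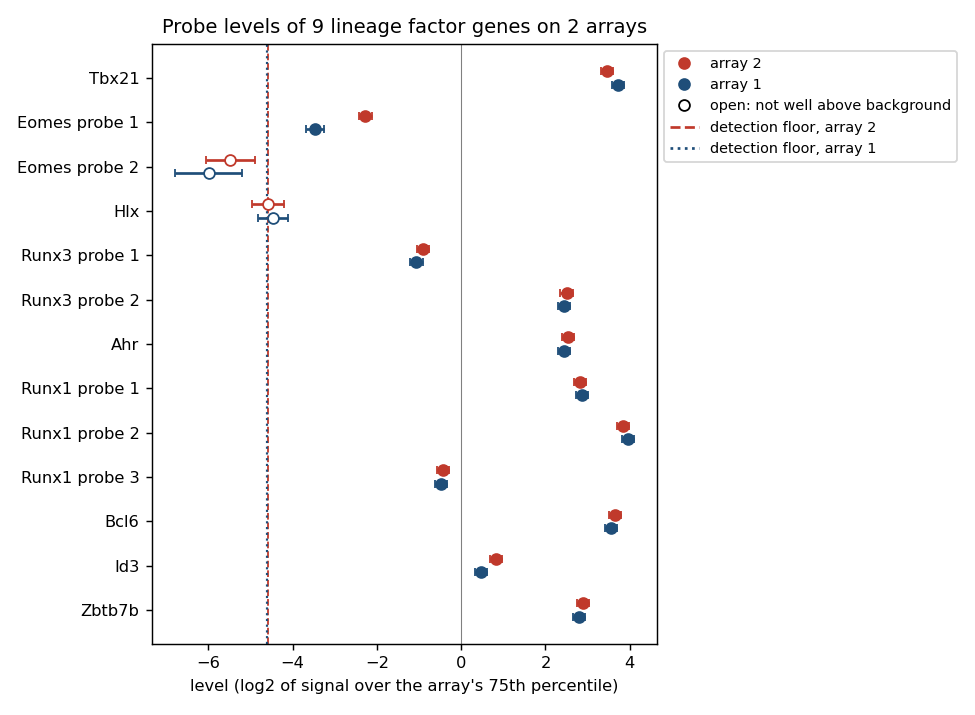
Level of each probe of the 9 factors, as log2 of signal over the 75th percentile of the array, on array 2 (upper point) and array 1 (lower point). Bars are the scanner's error of 1 spot, open points are not well above background, and vertical lines mark the detection floors (-4.58 and -4.62). The points of the 2 arrays lie apart for Eomes probe 1 and close together for the Runx1, Runx3, Ahr, Bcl6 and Zbtb7b probes.

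Tbx21, which encodes T-bet, the main regulator of the type 1 programme, was measured clearly on both arrays. Its processed signal was 3059 ± 306 on array 2 and 3784 ± 378 on array 1, over a local background of 27.0 on each. The levels were 3.45 on array 2 and 3.73 on array 1. Array 2 was thus lower by 0.28 ± 0.20, and the ranges of 1 spot error around the 2 levels just overlapped. Of the genes with a mean level of 2 or more, the central 95% differed by -0.20 to 0.30, so the difference of Tbx21 lay just below that range, while 3.67% of those 4003 genes were lower on array 2 by more than 1 spot error.

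Eomes, the T-box relative of T-bet that marks memory CD8 T cells and natural killer cells, was dim. The probe for NM_010136 had a processed signal of 57.8 ± 6.4 on array 2 and 25.9 ± 3.8 on array 1. Its raw spot brightness was 3.46 times the local background on array 2 and 2.04 times on array 1. The levels of -2.27 on array 2 and -3.47 on array 1 stood 4.94-fold and 2.22-fold above the floors of their arrays. The difference was 1.19 ± 0.26, or 2.28-fold higher on array 2, and the error ranges did not overlap. The second probe, for NM_001164789, lay below the floor at -5.48 on array 2 and -5.99 on array 1, and gives no usable difference.

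The size of the Eomes difference has to be read against other dim genes. Of the 2706 genes with a mean level below -2, 3.84% were 2-fold or more higher on array 2, and the central 95% differed by -0.67 to 1.15, just short of the Eomes value. With the normexp background correction the Eomes difference was 0.54, and with both probes averaged without a filter it was 0.85, so in either case it was no longer 2-fold. Being higher by more than 1 spot error was common among these dim genes, at 31.3%. A filter at 4 times the floor removed Eomes, because array 1 did not reach it.

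**Figure D2:**
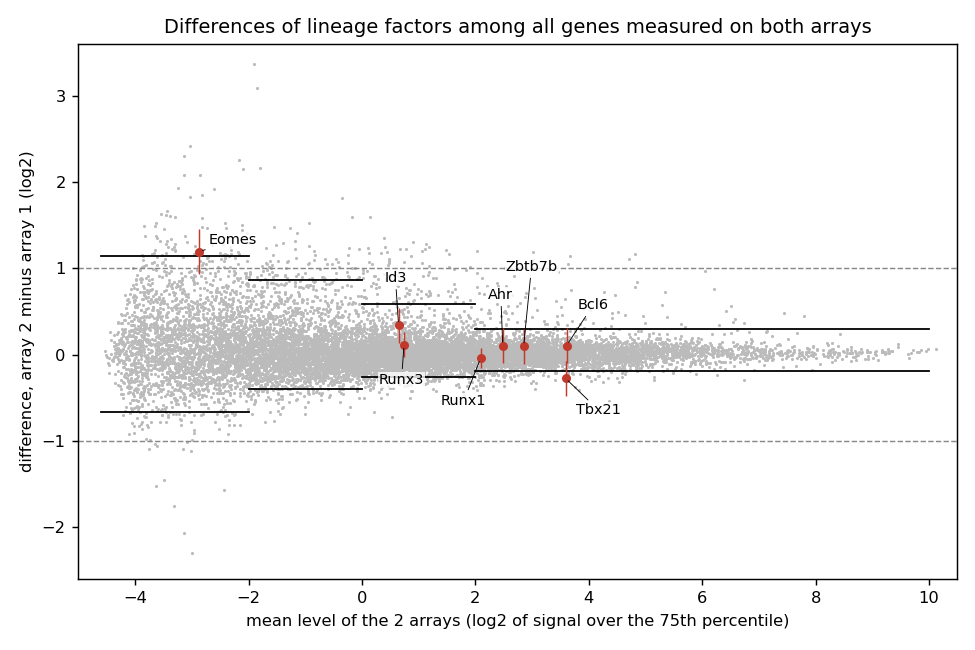
Difference between arrays (array 2 minus array 1, log2) against the mean level of both arrays for the 13743 measured genes (grey) and the 8 measured factors (red, with spot error). Black lines give the central 95% of genes in each range of level and dashed lines mark 2-fold. Eomes lies just over the upper line among the dim genes, Tbx21 just under the lower line among the bright genes, and the others within the lines.

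Hlx, a homeobox factor that works with T-bet on the interferon gamma gene, was not well above background. Its single probe had a processed signal of 11.6 ± 3.1 on array 2 and 12.9 ± 3.2 on array 1, at levels of -4.59 on array 2 and -4.47 on array 1. These lie at the detection floor. A less strict flag of the scanner, a signal positive and significant against background, was set for Hlx on both arrays, so that all 9 factors were detected by that flag. No fold is given for it.

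The genes around T-bet and Eomes were measured throughout. All 19 genes listed for the type 1 programme were well above background on both arrays, and none was 2-fold apart, with 7 higher and 12 lower on array 2 and a median of -0.06. With scaling by the spike-in controls 3 were higher and 16 lower. Il18rap, a chain of the interleukin 18 receptor, was lower on array 2 (0.60 on array 2 and 0.88 on array 1, difference -0.28 ± 0.20), on the same side as Tbx21. Gzmk, a granzyme of memory T cells, was higher on array 2, at -1.16 on array 2 and -1.93 on array 1 (0.77 ± 0.21, or 0.51 with normexp), on the same side as Eomes. Ifng, the signature cytokine gene of the programme, was at 3.66 on array 2 and 3.81 on array 1, and Cxcr3, a chemokine receptor gene that T-bet activates, at 6.29 and 6.38.

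Markers of other cells that use Eomes were in part higher on array 2 too. Of 8 genes listed for CD8 T and natural killer cells, 7 were measured on both arrays, 5 of them higher and 2 lower on array 2, and Ncr1, the defining receptor gene of natural killer cells, was on neither. Their summed level was 4.31 on array 2 and 4.11 on array 1. A summed level is log2 of the added linear levels of the listed genes measured on both arrays, so the brightest probes weigh most. Single members ran from -3.95 to 3.76 on array 2 and from -3.72 to 3.56 on array 1, with Cd8b1 the brightest on each. Cd8a and Cd8b1, the coreceptor chains of CD8 T cells, were higher on array 2 by 0.21 ± 0.15 and 0.20 ± 0.20. The natural killer receptor genes Klrd1 and Klrb1c were lower, with differences of -0.12 ± 0.20 and -0.24 ± 0.35, the second of which was 0.14 without the filter on dim probes. Klra8 was higher by 1.92 ± 0.27, but from 1 of its 3 probes, and the difference was -0.32 when all 3 were averaged without a filter. The part of such cells in the Eomes difference was not tested. In sorted bulk RNA, fewer cells of a type and less RNA per cell cannot be told apart.

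Runx3, which silences Cd4 and promotes CD8 and type 1 fates, was measured by a pair of probes for the same transcript. The brighter probe had signals of 1582 ± 158 on array 2 and 1543 ± 154 on array 1, and the dimmer probe had 150 ± 15 and 137 ± 14. Both probes were slightly higher on array 2, by 0.07 ± 0.20 and 0.16 ± 0.21, and their mean difference was 0.11 ± 0.15. The difference was within the spot error.

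Runx1, which binds together with Foxp3 in Tregs, had 3 probes, all well above background. Their signals were 3992 ± 399, 1975 ± 198 and 206 ± 21 on array 2, against 4437 ± 444, 2090 ± 209 and 204 ± 21 on array 1. The first and second, for NM_001111023, differed by -0.12 and -0.05 and the last, for NM_009821, by 0.05. The mean difference was -0.04 ± 0.12, with no probe beyond its spot error.

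The partner of the Runx factors was present as well. Cbfb, the subunit that they need for binding DNA, was at 5.59 on array 2 and 5.69 on array 1 (-0.11 ± 0.20). Runx2, the bone regulator of the family, was at -2.10 on array 2 and -1.82 on array 1, a difference of -0.28 ± 0.15 (-0.14 with normexp). Of the corepressors in this list Cbfa2t3 differed by -0.19 ± 0.21 (0.77 when a further, dim probe was averaged in) and Cbfa2t2 by -0.11 ± 0.10 (0.06 with its brightest probe), while Runx1t1 reached the detection flag on neither array. The 4 measured genes were lower on array 2, with a median of -0.15, or of -0.07 with normexp.

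Zbtb7b encodes ThPOK, which secures the CD4 lineage and opposes Runx3. Its signal was 2082 ± 208 on array 2 and 1993 ± 199 on array 1, at levels of 2.90 on array 2 and 2.80 on array 1. The difference of 0.09 ± 0.20 was within the spot error, as it was for Runx3. The transcripts of these opposed factors were thus both present in RNA of cells sorted for CD4. All 11 genes listed for the lineage choice were measured on both arrays. Cd4 was at 3.20 on array 2 and 3.21 on array 1, and Gata3, needed for CD4 lineage entry and for type 2 responses, at 7.34 and 7.32, with a sign that turned under most rescalings. As reported, the largest differences in the list were those of Myb (-0.69 ± 0.21), a regulator of thymocyte development, Lef1 (0.22 ± 0.20), a Wnt pathway factor, Cd8a and Patz1 (0.20 ± 0.15), a Cd8 regulator also known as MAZR. The Myb value rested on 2 of 3 probes, and was -0.26 with normexp, -0.45 with the stricter filter and -0.08 with no filter, where it was no longer the largest. The list had 7 genes higher and 4 lower on array 2 with a median of 0.05, but 5 higher and 6 lower with a median of -0.003 with scaling by the spike-in controls.

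Ahr encodes the aryl hydrocarbon receptor, which pairs with Arnt in the nucleus to bind the core sequence GCGTG when a ligand is present. Its signal was 1619 ± 162 on array 2 and 1541 ± 154 on array 1, at levels of 2.53 and 2.43. The difference was 0.10 ± 0.20, so the arrays were alike within the spot error. Its partner Arnt was also measured, at 0.57 on array 2 and 0.74 on array 1 (-0.16 ± 0.14, or -0.02 with its brightest probe). The cytosolic chaperones that hold the receptor ready were measured too, and Hsp90aa1 (0.24 ± 0.14), Hsp90ab1 (0.23 ± 0.20) and the cochaperone gene Ptges3 (0.19 ± 0.20) had larger differences than the receptor.

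The classical target genes of the receptor were mostly not detected. Cyp1a1, Cyp1a2 and Cyp1b1, which encode enzymes that metabolise its ligands, and Ahrr, its repressor, failed the flag for well above background on each array. Their levels ranged from -6.89 for Cyp1a1 to -5.16 for the first Ahrr probe on array 2, and from -6.92 for the second Ahrr probe to -4.53 for the first on array 1. Tiparp, a feedback inhibitor, was well above background at 0.997 on array 2 and 1.04 on array 1 (-0.04 ± 0.20). Nqo1, an antioxidant enzyme gene that also answers to Nrf2, was dim at -3.40 on array 2 and -3.84 on array 1 (0.44 ± 0.30, or 0.18 with normexp). The median over the 7 measured partners and targets was 0.19, but 0.01 with no filter on dim probes and 0.09 with the stricter filter. A detected receptor transcript thus stood beside 4 of 6 listed targets that were not measured.

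The core sequence can be seen upstream of both kinds of target. Shown are the 250 bases before the RefSeq start of Tiparp, which was detected, and of Cyp1a1, which was not, both on the plus strand of GRCm38.p6, at chr3:65528197-65528446 and chr9:57697363-57697612. Capitals mark GCGTG or, on the other strand, CACGC.
Tiparp: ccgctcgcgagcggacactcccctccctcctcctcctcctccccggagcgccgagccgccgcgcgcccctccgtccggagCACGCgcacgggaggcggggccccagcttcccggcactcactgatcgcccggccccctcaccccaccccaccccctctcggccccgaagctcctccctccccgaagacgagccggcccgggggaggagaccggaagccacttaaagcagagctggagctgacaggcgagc
Cyp1a1: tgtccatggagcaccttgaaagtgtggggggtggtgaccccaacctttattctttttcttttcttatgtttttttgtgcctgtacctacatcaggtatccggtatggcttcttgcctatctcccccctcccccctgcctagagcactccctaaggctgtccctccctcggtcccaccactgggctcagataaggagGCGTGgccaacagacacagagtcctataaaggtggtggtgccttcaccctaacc
Each window held 1 core. The Ahrr window held 3 and the Cyp1b1 window 1, and the Cyp1a2 and Nqo1 windows held 0. A core on either strand was found in 28.2% of 32851 RefSeq promoter windows of this length, so its presence is a description of the letters only, and windows farther upstream were not searched.

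The rest of the type 17 programme showed regulators without effector cytokines. Of 12 listed genes 9 were measured on both arrays, whereas the cytokine genes Il17a, Il17f and Il22 reached the detection flag on neither array. Rora, a nuclear receptor of this programme, was at 4.46 on array 2 and 4.72 on array 1 (-0.26 ± 0.14). Irf4, a factor induced by antigen receptor signals, was higher on array 2 by 0.22 ± 0.14, but by 0.06 with its brightest probe. The receptor gene Il1r1 differed by -0.22 ± 0.26, or by -0.08 with normexp. The median over the 9 genes was -0.06, with 4 higher and 5 lower, and it turned to 0.02 when dim probes were kept and to 0.004 when the filter was stricter.

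Bcl6, the repressor that directs follicular helper and follicular regulatory T cells, had a signal of 3535 ± 353 on array 2 and 3359 ± 336 on array 1. The levels were 3.66 on array 2 and 3.56 on array 1, a difference of 0.10 ± 0.20 within the spot error. Prdm1, which encodes Blimp-1 and opposes Bcl6, was measured as well, at 3.35 on array 2 and 3.13 on array 1 (0.22 ± 0.20, or 0.14 with normexp). Of the corepressor genes of Bcl6, Ncor1 differed by -0.12 ± 0.09 and Bcor by -0.05 ± 0.14. Transcripts of both opposed regulators were therefore present on each array.

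Follicular genes were detected beside Bcl6. Of 15 listed genes 14 were measured on both arrays, 11 of them higher and 3 lower on array 2, with a median of 0.09 that stayed between 0.03 and 0.12 under all alternatives that keep the order of the arrays. The count depended on the scaling, with 7 higher and 7 lower when the spike-in controls set it. Tox2 (0.45 ± 0.23), Ascl2 (0.34 ± 0.27) and the B cell coactivator gene Pou2af1 (0.28 ± 0.21), all with levels below 0, and Pdcd1, which encodes PD-1 (0.25 ± 0.20), had its largest differences. With normexp Tox2 was 0.26 and Ascl2 0.11, so that Ascl2 was no longer among them. Cxcr5, the receptor that guides cells to follicles, was at 1.11 on array 2 and 0.99 on array 1. Cd40lg was not well above background on array 2, at -4.68, and was at -3.84 on array 1. Its level on array 1 stood 1.67-fold above the floor of array 2, with the spot error left out. B cell markers, which such genes could accompany, were dim apart from Cd79b: their summed level was 2.34 on array 2 and 2.64 on array 1, 4 of 5 were measured on both arrays, and Pax5 reached the flag on array 1 only. Their part in the follicular values was not tested.

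Id3, an inhibitor of E proteins, had a difference second in size to that of Eomes as reported, though below that of Tbx21 with scaling by the spike-in controls and below those of Tbx21 and Ahr with normexp. Its signal was 492 ± 49 on array 2 and 398 ± 40 on array 1, at levels of 0.82 and 0.48. Array 2 was higher by 0.34 ± 0.20, or 1.26-fold, and the error ranges lay just apart. Among the 3790 genes with a mean level from 0 to 2 the central 95% differed by -0.26 to 0.59, so Id3 lay inside that range, and 13.6% of them were higher by more than 1 spot error. The difference stayed positive, between 0.21 and 0.37, under all alternatives that keep the order of the arrays. Counting all factors, 2 were higher by more than 1 spot error (Eomes and Id3), against 17.1% of all measured genes, and 1 was lower (Tbx21), against 11.4%.

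As reported, the relatives and targets of Id3 measured on both arrays differed less, but with normexp Tcf4 was 0.22 and Id3 0.21. Id2, the inhibitor used by effector T cells, was at 5.60 on array 2 and 5.46 on array 1 (0.14 ± 0.20), and Id1 at -2.48 and -2.36 (-0.12 ± 0.23, or 0.004 with normexp). Id4 lay at the floor, at -4.52 on array 2, where it was well above background, and -4.67 on array 1, where it was not. Its level on array 2 stood 1.07-fold above the floor of array 1, with the spot error left out. No fold between the arrays is given for Id4. Of the E proteins, Tcf3 (0.03 ± 0.15, or -0.02 with scaling by the spike-in controls) and Tcf12 differed by less than their spot errors, and Tcf4 by 0.25 ± 0.15, from 2 of its 5 probes, or by 0.04 with no filter. The list's median of 0.03 likewise turned negative with that scaling.

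**Figure D3:**
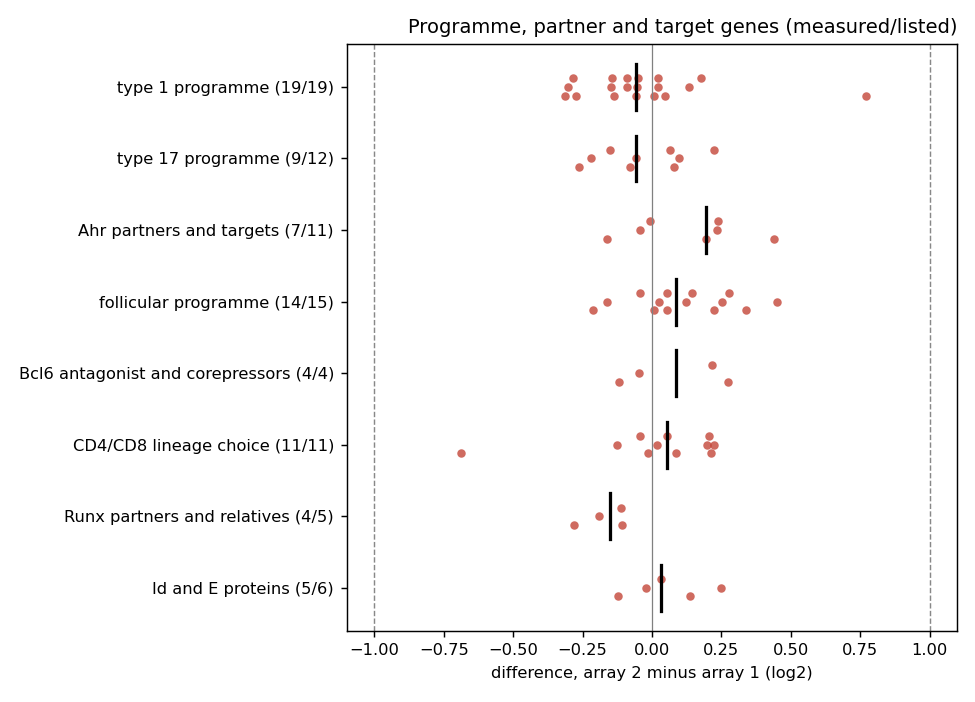
Differences (array 2 minus array 1, log2) of the genes listed around the factors, 1 point per gene measured on both arrays, with the list's median as a black bar and 2-fold as dashed lines. The medians run from -0.15 (Runx partners and relatives) to 0.19 (Ahr partners and targets, 0.01 with no filter on dim probes), and no gene of these 8 lists reaches 2-fold.

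Other cells use several of these factors, and their marker genes were present in the same RNA. Ahr is expressed in epithelium and myeloid cells, Runx1 and Bcl6 in myeloid cells, Bcl6 in B cells, and Id3 and Hlx in endothelium or stroma. All 8 nephron markers were measured on both arrays and all were higher on array 2, 5 of them 2-fold or more. Their median difference was 1.12. Their summed level was 7.04 on array 2 and 6.56 on array 1. It was set mostly by Umod, the brightest of them, at 6.79 on array 2 and 6.37 on array 1 (0.42 ± 0.20). All 8 macrophage and monocyte markers were measured, 7 of them higher on array 2, with a summed level of 4.80 on array 2 and 4.57 on array 1. Endothelial markers had a summed level of 1.66 on array 2 and 1.72 on array 1 with 5 of 7 measured, among them not Tek and Tie1, and dendritic cell markers 1.09 and 1.01 with 4 of 5 measured.

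Of 5 fibroblast and mesangial markers 2 were measured on both arrays, with a summed level of -2.36 on array 2 and -2.30 on array 1, and of 4 podocyte markers none was well above background on either. Treg markers had a summed level of 9.47 on both arrays, with 5 genes higher and 5 lower on array 2. That list includes Cd3e, Cd4 and Ptprc, which other T cells also express. Foxp3 itself was at 4.74 on array 2 and 4.92 on array 1 (-0.17 ± 0.20). The part of these cells in the levels and differences of the 9 factors was not tested.

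**Figure D4:**
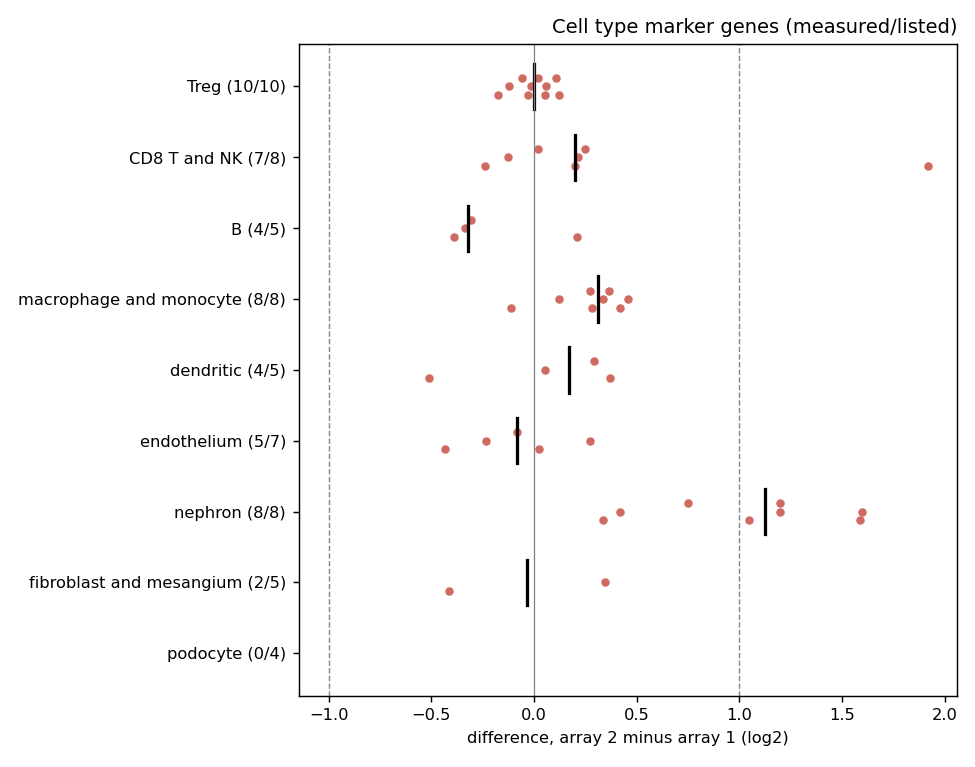
Differences (array 2 minus array 1, log2) of marker genes of Tregs and of 8 other cell types, 1 point per gene measured on both arrays, with medians as black bars and 2-fold as dashed lines. Treg markers lie around 0, nephron markers all lie to the right with a median of 1.12, and no podocyte marker was measured.

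The scaling of the arrays moved the differences little. Under the 5 alternatives that only rescale or centre the arrays, Tbx21 stayed between -0.33 and -0.28, Eomes between 1.14 and 1.22, Runx3 between 0.06 and 0.13, Ahr between 0.05 and 0.11, Runx1 between -0.10 and -0.03, Id3 between 0.28 and 0.37, Bcl6 between 0.05 and 0.10 and Zbtb7b between 0.04 and 0.10. No factor changed sign under them. Taking the deposited value table by its labels turned every sign, since its lots are the other way round.

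**Figure D5:**
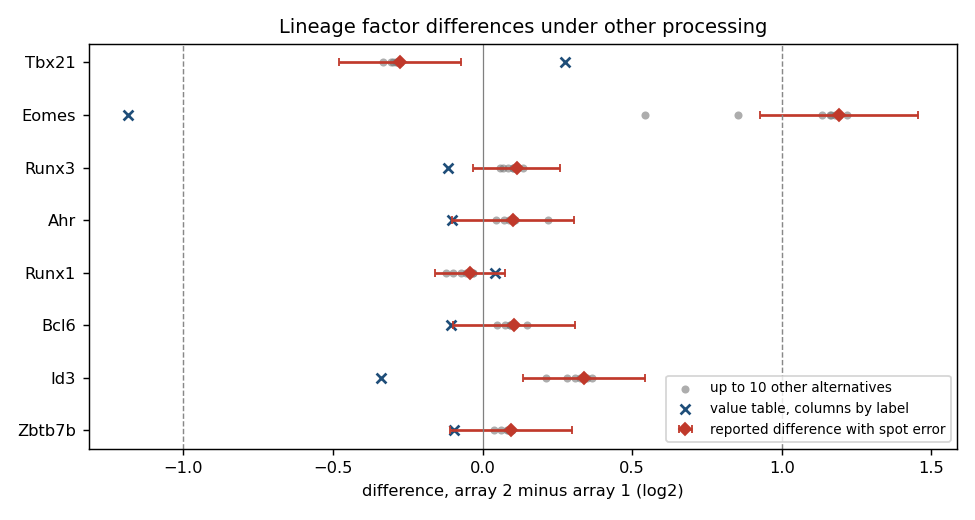
Difference of each measured factor (array 2 minus array 1, log2) as reported, with its spot error (red), under up to 10 other ways of processing (grey) and from the deposited value table with columns taken by their labels (blue crosses). Grey points stay on the same side of 0 as the reported value for each factor. Those of Eomes spread from 0.54 to 1.22, and the crosses mirror the reported values.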

How the data were processed

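Cy3-labelled total RNA of each lot was read on 1 single-colour Agilent array with Agilent Feature Extraction 10.7.1.1, a version named in the submitters' processing notes. The statistics that stand, per the file headers, beside the processed signal intensity record background subtraction and detrending within each array and no step between arrays. The deposited files also hold raw median intensities and other flags of 0 or 1. The deposited value table holds a linear ratio per probe. Neither the labels nor the headers state how, and the comparison in the results showed it to be the processed signal over 1 constant per array, not log-transformed and not centred by gene, with column medians of 0.069 (lot M label) and 0.070 (lot I label). Which lot each array belongs to stays unsettled.

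From these, log2 signals minus the 75th percentile of each array were computed over 56605 probes. Of 62976 spots per array, 3671 control spots were left out, as were outlier spots, 56 of them on array 2 and 75 on array 1, and no spot was saturated. Of the probes, 32994 received 1 symbol through RefSeq accessions (GRCm38.p6, used for names and for upstream sequences, since the array header names another build). Differences were averaged over the probes of a gene that both arrays flagged well above background. Depth does not apply to arrays, and their number limits the precision. Repeated spots of one probe with a mean level of 2 or more had a median SD of 0.033 on array 2 and 0.034 on array 1. Protocol, grid, scanner, software and scan date were the same in both headers, so no batch could be separated.

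Members and lists were chosen with earlier results of these data known. Named genes are the 9 factors, the unmeasured genes and up to 4 genes with the largest differences of each list around them. Ifng, Cxcr3, Arnt, Tiparp, Cxcr5, Cd40lg, Cd4, Gata3, Id4, Tcf12 and the single markers were named after their values were seen. Some listed genes are left unnamed here. The alternatives were normexp (limma 3.58.1, offset 50, on median signals), scaling by the median of genes, by 8 spike-in controls or not at all, lowess centring (span 0.3), quantile normalisation, a filter at 4 times the floor or none, the brightest probe, outlier spots included, the value table, another detection flag, and limits of 1.5-fold and 4-fold. The functions recovered planted differences in simulated data. These were larger than the difference of any factor and were planted in genes brighter than Eomes. Small differences and dim genes were thus not covered.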

Additional observations from a re-analysis of the deposited data

How the results depend on the processing

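Of 87 factor differences recomputed under the 11 alternatives, 79 moved by less than 1 spot error. Eomes was 0.54 with normexp and 0.85 with no filter on dim probes, and had no difference under the stricter filter, so that 0 factors were 2-fold higher under these 3 settings and at a limit of 4-fold. The cause was not tested, except that the stricter filter removes the gene. The value table with columns by label turned Eomes to -1.18, the median of the factors to -0.10, the median of all markers of other cells to -0.26 and that of the nephron markers to -1.12, with 0 factors 2-fold higher and 1 lower on array 2, because its lots are reversed. Genes 2-fold higher and lower on array 2 numbered 184 and 12. They were 28 and 0 with normexp, 648 and 399 with no filter, 84 and 1 with the stricter filter, 13 and 184 by the value table, 709 and 112 at 1.5-fold, and 9 and 2 at 4-fold. The measured factors were 7 under the stricter filter and 9 with the other flag. No paired analysis was possible because each lot has 1 array. Signal over background limits the values of Eomes and Hlx.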
